A study of Mus musculus with 6 samples.

Results

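The genes described here encode fatty acid binding and uptake proteins, and their RNA was measured in livers of mice fed a regular diet (RD) or a high-cholesterol diet (HCD). The set holds 8 genes of the 20673 listed in the deposited tables. They are the intracellular binding proteins Fabp1, Fabp2, Fabp4, Fabp5 and Fabp7, the membrane receptor Cd36, and the transporters Slc27a2 and Slc27a4. Each was matched by its gene symbol, and the counts were joined by Ensembl identifier. The members were selected with their differences between the diets already known, among them the lower level of Fabp5 with HCD, so those differences are given as a description and without p-values. All animals were C57BL/6J mice of about 12 weeks, with no transgene or gene deletion in either group. One group of 3 mice ate RD and the other group of 3 mice ate HCD for 3 days, and the HCD contained cholesterol, cocoa butter and sodium cholate, so that these components cannot be told apart. The study used male and female mice, and the labels do not give the sex of each liver.

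Fatty acid binding proteins are small cytosolic barrels that hold 1 or a few long-chain fatty acids and carry them between membranes, mitochondria, lipid droplets and the nucleus. Fabp1 is the abundant liver form, Fabp2 the intestinal form, Fabp4 the adipocyte and macrophage form, Fabp5 the epidermal form, which is also found in macrophages, endothelium and many epithelia, and Fabp7 the brain form. CD36 is a scavenger receptor that takes up fatty acids and oxidised lipoproteins at the plasma membrane. The SLC27 proteins couple fatty acid uptake to activation with coenzyme A, FATP2 (Slc27a2) being a main form in hepatocytes. Several of these genes are known targets of the nuclear receptor PPAR alpha, which binds fatty acids.

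The 5 binding proteins share a fold and exon layout, and their sequences have diverged in the coding part. The first 90 coding bases of the spliced coding sequence of each gene, taken from the principal transcript of GENCODE M21 (GRCm38), are shown to make that visible. Fabp5 is in lower case, and capitals in the other genes mark bases that equal the Fabp5 base in a global alignment of the 2 coding sequences.
Fabp5: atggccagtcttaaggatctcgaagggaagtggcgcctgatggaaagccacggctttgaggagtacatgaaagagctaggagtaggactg
Fabp1: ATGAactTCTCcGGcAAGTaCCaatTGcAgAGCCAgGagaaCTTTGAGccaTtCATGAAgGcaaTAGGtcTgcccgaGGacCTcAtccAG
Fabp2: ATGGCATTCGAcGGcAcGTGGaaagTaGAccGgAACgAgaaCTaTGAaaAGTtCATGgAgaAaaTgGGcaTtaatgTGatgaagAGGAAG
Fabp4: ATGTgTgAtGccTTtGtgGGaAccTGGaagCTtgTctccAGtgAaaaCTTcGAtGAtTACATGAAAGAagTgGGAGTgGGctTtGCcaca
Fabp7: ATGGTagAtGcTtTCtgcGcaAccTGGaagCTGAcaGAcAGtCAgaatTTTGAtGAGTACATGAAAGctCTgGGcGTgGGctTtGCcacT
In these stretches between 51 and 55 bases matched Fabp5. Over the whole aligned coding sequences, Fabp5 was 61.4% identical to Fabp4, 58.0% to Fabp1, 56.8% to Fabp7 and 53.2% to Fabp2. Slc27a2 and Slc27a4 were 54.6% identical. No pair of members shared a stretch of at least 200 bases at 85% identity or more.

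Fabp1 and Fabp2, which stand against Fabp5 in the results, and Fabp7 have promoter entries in the RefSeq sequences used. The 250 bases before each RefSeq transcription start on GRCm38.p6 are shown 5′ to 3′ on the strand of the gene, with capitals for the nuclear receptor hexamer AGGTCA on either strand, which reads TGACCT when it lies on the other strand.
Fabp1 promoter, chr6:71199629-71199878, plus strand: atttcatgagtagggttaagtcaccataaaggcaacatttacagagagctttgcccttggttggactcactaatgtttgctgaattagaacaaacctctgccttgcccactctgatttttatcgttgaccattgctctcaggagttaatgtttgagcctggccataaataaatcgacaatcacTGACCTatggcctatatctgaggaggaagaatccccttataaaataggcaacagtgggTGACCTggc
Fabp2 promoter, chr3:122894822-122895071, plus strand: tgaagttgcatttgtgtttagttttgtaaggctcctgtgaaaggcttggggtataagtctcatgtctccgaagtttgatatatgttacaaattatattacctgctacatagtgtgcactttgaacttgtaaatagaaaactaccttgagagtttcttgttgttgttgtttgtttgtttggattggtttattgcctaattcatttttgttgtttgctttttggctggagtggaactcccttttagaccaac
Fabp7 promoter, chr10:57784673-57784922, plus strand: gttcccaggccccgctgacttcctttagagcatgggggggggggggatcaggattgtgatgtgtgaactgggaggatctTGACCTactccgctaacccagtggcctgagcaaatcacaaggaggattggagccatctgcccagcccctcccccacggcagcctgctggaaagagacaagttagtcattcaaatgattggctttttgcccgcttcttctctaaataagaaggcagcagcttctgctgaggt
The hexamer occurred in 4604 of 32817 mouse promoter windows of this length. The Fabp1 window held 2 matches, with first bases at -67 and -9 from the start, and the TATA box letters TATAAA at -30, which 12.4% of windows hold. The Fabp7 window held 1 hexamer at -171, and the windows of Cd36 and Slc27a2 held 1 each at -228 and -220. The letters were absent from the windows of Fabp2 and Slc27a4. None of the 6 member windows held the E-box CACGTG (6.0% of all windows) or the sterol regulatory element TCACNCCAC (1.1%). M21 places the gene start of Fabp1, Fabp7, Cd36 and Slc27a2 further upstream than the RefSeq start used, so part or all of these windows lies inside the gene as M21 annotates it, the Fabp1 matches at -30 and -9 included. A match of letters is a description and not a binding site.

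The counts on genes came to between 13771630 and 23129576 in the RD livers and between 13935491 and 18545549 in the HCD livers. In edgeR's quasi-likelihood test 13105 genes had enough counts, and 428 of them passed an adjusted p of 0.05. HCD replicate 1 stood apart from the other livers: it had 254 CPM (counts scaled to a common library total with TMM factors) of the X-inactivation transcript Xist, which was at 0 in the other 5 livers, and no reads on the Y-linked genes Ddx3y, Kdm5d, Eif2s3y and Uty, which every other liver expressed. Members that this liver moved are given with and without it, and where 3 values are given for a diet they follow the replicate numbers. Genes of short transcripts were higher with HCD as a class: the median log2 fold change was 0.32 in the shortest of 10 length groups, of 57 to 1434 exonic bases, and -0.17 in the longest, and this difference was not tested further. Hepatocyte markers summed to between 105600 and 152300 CPM in all livers and overlapped between the diets. Red blood cell markers summed to 138 to 239 CPM with RD and 177 to 468 CPM with HCD. Of the 5 tested, 4 had a log2 fold change above 0 and 1, Alas2 (-0.70), below, with a median of 2.28. Hba-a1 (2.41) and Hbb-bs (2.28) passed. Alas2 had a mean of 121 CPM with RD, a large part of those sums, and 8.24 CPM in HCD replicate 1. The 10 stellate cell and fibroblast markers all had a log2 fold change above 0, with a median of 0.51. Without HCD replicate 1 their median was 0.34, and Pdgfrb was at -0.25. The part of these cells in the members' values was not tested. Of 15 tested clock genes, 1 passed, upward, with all livers. The values of 9 did not overlap between the diets, against 27.6% of all genes tested. Without HCD replicate 1, upward calls among them came to 2 and downward calls to 2. The labels do not give the hour of collection, and the part of clock differences in the members' values was not tested.

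All 8 members were tested, and 3 of them passed the threshold, beside 3.27% of all genes tested. Fabp2 and Fabp7 were higher with HCD, a direction taken by 1.95% of all genes tested, and Fabp5 was lower, as were 1.32% of all genes. Since the members were selected on this contrast, nothing is read from those shares. Fabp7 had 6 to 10 reads in the RD livers and passed the filter on low counts only through the HCD livers, so that its presence among the genes tested already required a difference. The genes Fabp1, Fabp4, Cd36, Slc27a2 and Slc27a4 did not pass. The values of the diets did not overlap for Fabp1, Fabp2, Fabp5 and Fabp7, that is 4 of the 8, against 27.6% of all genes tested. The median log2 fold change (HCD over RD) of the 8 members was 0.46 and that of all genes tested was 0.007, but the members lay on both sides of 0, from -4.10 to 3.28.

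**Figure D1:**
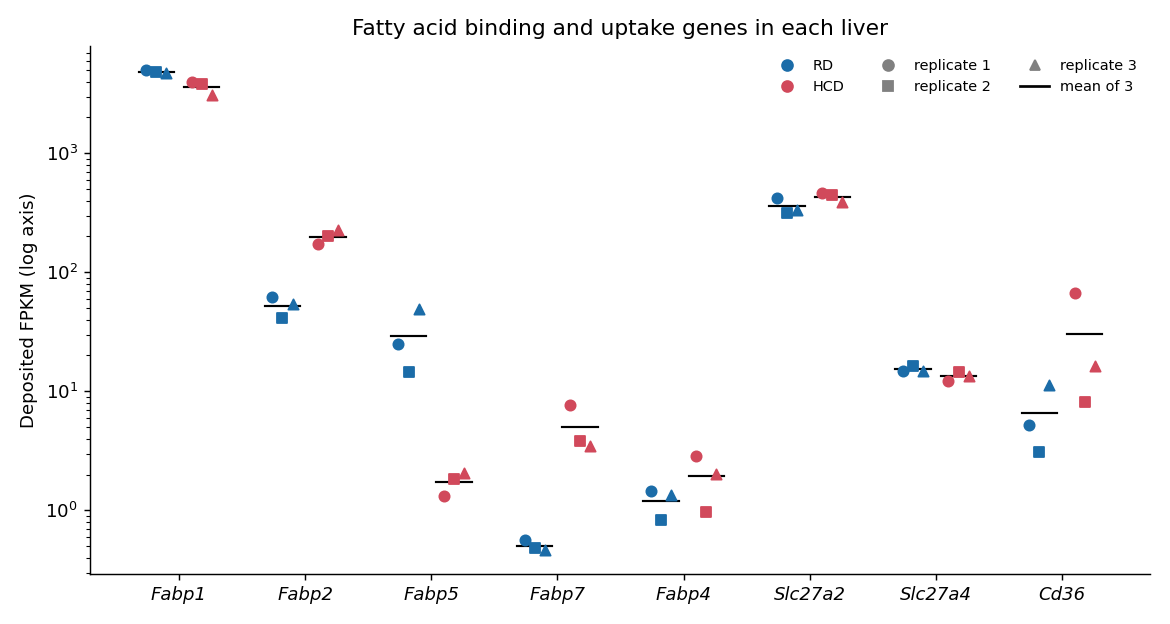
FPKM of the 8 genes in each liver on a log axis, with RD in blue, HCD in red, a marker shape for each replicate number and a black line at the mean of 3 livers. Fabp1 lay far above the other binding proteins in every liver, Fabp5 dropped from between 14.5 and 48.9 FPKM to between 1.32 and 2.08, and Cd36 was spread widely within both diets.

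Levels of different genes were compared on FPKM, which are fragments per kilobase of exons scaled to a library total, as deposited. Fabp1 was the most abundant member in every liver, at 5017, 4858 and 4723 FPKM in the RD livers and 3956, 3851 and 3091 FPKM in the HCD livers. It stood at place 19 or 20 of all listed genes in the RD livers and between places 19 and 44 in the HCD livers. Slc27a2 followed and Fabp2 was at place 3 of the members in all 6 livers. With RD, Fabp5 (29.4 ± 17.7 FPKM, SD, n = 3) and Slc27a4 (15.4 ± 0.84) exchanged places between livers, ahead of Cd36, Fabp4 and Fabp7. With HCD, Fabp5 (1.74 ± 0.383) and Fabp4 (1.96 ± 0.956) were at the bottom of the order, and their ranges overlapped.

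The length used in FPKM bears on this order for Fabp4 and Fabp5. The annotated exons of Fabp5 add up to 3567 bases and those of Fabp4 to 4489 bases, whereas the principal coding transcripts have 987 and 896 bases, since other annotated transcripts add exonic sequence. For Fabp1 and Fabp2 both lengths are equal, at 553 and 965 bases. Per kilobase of the coding transcript, a scale added after seeing the data, Fabp5 was at place 3 of the members in every RD liver, ahead of Fabp2, and between places 6 and 8 in the HCD livers. Differences between the diets within a gene do not depend on this choice.

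Fabp1, the main fatty acid carrier of the hepatocyte, was a little lower with HCD. It had 1907, 1873 and 1747 CPM in the RD livers and 1450, 1473 and 1140 CPM in the HCD livers. Every HCD liver lay below every RD liver. The mean went from 1843 ± 84.2 CPM (SD, n = 3) to 1354 ± 186 CPM, a log2 fold change of -0.44 with a standard error of 0.17, which did not pass the threshold across all genes. Fabp1 is 553 bases long and falls in the shortest length group, whose median was 0.32, and after removal of the trend with length its log2 fold change was -0.72, still short of the threshold.

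Fabp2, the carrier best known from enterocytes, was higher with HCD in every liver. Its levels were 41.1, 27.8 and 35.0 CPM in the RD livers and 112, 134 and 145 CPM in the HCD livers. The lowest HCD liver was more than the highest RD liver. The means were 34.6 ± 6.67 CPM with RD and 130 ± 16.8 CPM with HCD (SD, n = 3), a ratio of 3.75 and a log2 fold change of 1.91 with a standard error of 0.18. Leaving out each liver in turn moved this between 1.77 and 2.05. It was 1.68 after removal of the length trend.

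Of the intestinal epithelium markers with values, 2 were near 0 in these livers. Vil1 reached at most 0.648 CPM and Lct at most 0.138 CPM in any liver, and of the 8 markers on the list 3 had rows in the tables. The sum of this list, 49.97 to 80.2 CPM with RD and 84.9 to 151 CPM with HCD, came almost wholly from Apoa4, an apolipoprotein that mouse liver makes as well, and did not overlap between the diets. The part of this list in the Fabp2 values was not tested.

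Fabp5 showed the largest difference of the 8 genes. Read counts were 1272, 516 and 2689 in the RD livers, and 62, 65 and 61 in the HCD livers. These counts correspond to 61.1, 36 and 117 CPM with RD and to 3.13, 4.48 and 4.94 CPM with HCD. The RD livers spanned a 3.24-fold range among themselves, the HCD livers were close together, and the groups were far apart.

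The mean of Fabp5 was 71.3 ± 41.3 CPM with RD and 4.19 ± 0.941 CPM with HCD (SD, n = 3), which is 17.0-fold lower. Its log2 fold change was -4.10 with a standard error of 0.44. Leaving out 1 liver at a time gave values from -4.43 to -3.55, the smallest without RD replicate 3, and Fabp5 passed the threshold in each of these fits. Leaving out HCD replicate 1 gave -3.92. In bulk liver RNA, fewer cells that express Fabp5 and less Fabp5 RNA per cell cannot be told apart.

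Markers of the non-parenchymal cells in which Fabp5 is also known were summed in each liver. The 12 Kupffer cell and macrophage markers summed to 203 to 325 CPM with RD and 280 to 578 CPM with HCD, all 12 had a log2 fold change above 0 (median 0.84, or 0.62 without HCD replicate 1), and 1 of them, Cd68, passed (1.24). Without HCD replicate 1 Cd68 was again at 1.24 and just short of the threshold, and Adgre1 was at -0.02. The 12 liver endothelial markers summed to 185 to 312 CPM with RD and 259 to 382 CPM with HCD. With all livers 10 of them had a log2 fold change above 0 and 2 below, with a median of 0.29. Without HCD replicate 1 the median was 0.11, and Stab1, Stab2, Lyve1, Pecam1 and Gpr182 were below 0. The part of these cells in the Fabp5 values was not tested.

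Fabp5 has processed copies elsewhere in the genome. Gm6166 on chromosome 9 is 98.3% identical to Fabp5 over 409 bases and had 11, 8 and 28 reads in the RD livers and 2, 0 and 2 in the HCD livers. Gm14328 on chromosome 18, 97.3% identical over 408 bases, had 2 reads in all. The sources do not state how reads shared between Fabp5 and these copies were counted or whether they were dropped.

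On chromosome 3 of GRCm38, Fabp5 lies at 10012548 to 10016607 on the plus strand and Fabp4 at 10204088 to 10208576 on the minus strand, 187480 bases apart. The nearest annotated protein-coding genes beside Fabp5 are Pag1, an adaptor of immune receptor signalling, and Gm9833. Their log2 fold changes were 0.16 and -0.05, and neither passed. Beyond Fabp4 lies Fabp12, with 7, 2 and 6 reads in the RD livers and 0 reads in each HCD liver, too few to be tested.

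Set against Fabp1 and Fabp2 in the same liver, Fabp5 was lower with HCD, which is the contrast the members were chosen for and is given as a description. On FPKM, the log2 ratio of Fabp5 to Fabp1 was -7.65, -8.39 and -6.59 in the RD livers and -11.54, -11.05 and -10.54 in the HCD livers. The log2 ratio of Fabp5 to Fabp2 was -1.31, -1.51 and -0.15 in the RD livers and -7.04, -6.79 and -6.76 in the HCD livers. Both ratios were lower in every HCD liver than in any RD liver. Per kilobase of the coding transcript, the mean log2 ratio of Fabp5 to Fabp2 went from 0.86 ± 0.74 to -5.01 ± 0.16 (SD, n = 3), so Fabp5 was above Fabp2 with RD and below it with HCD. The scales differ by a constant for each gene, so only the level of a ratio and not its difference between the diets depends on them.

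**Figure D2:**
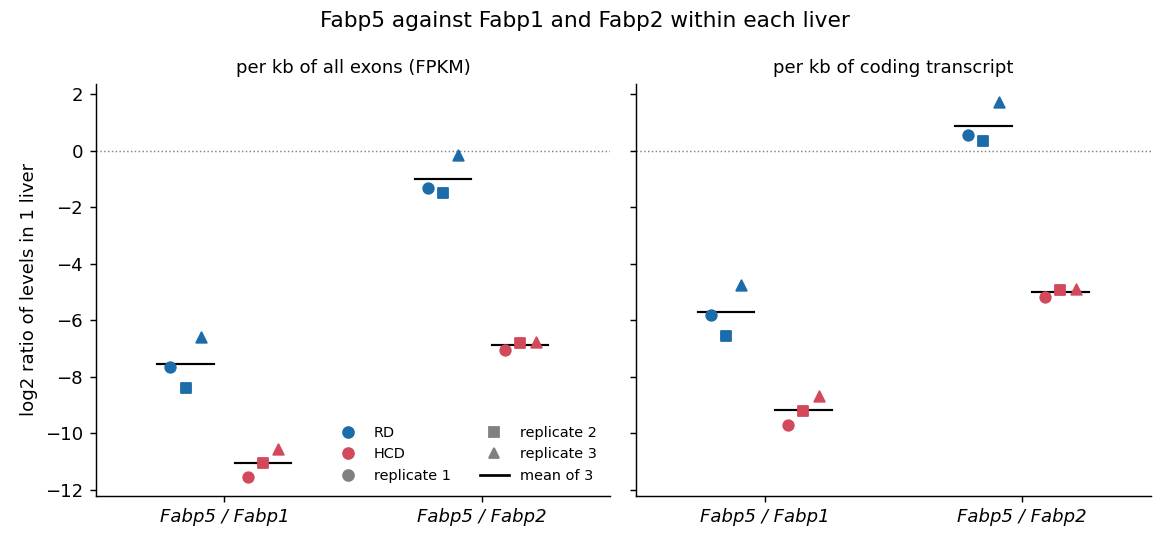
Log2 ratio of Fabp5 to Fabp1 and to Fabp2 in each liver, per kilobase of all exons (left, FPKM) and per kilobase of the principal coding transcript (right), with RD in blue, HCD in red and black lines at means of 3. The HCD livers lie below the RD livers for both ratios, and the ratio to Fabp2 is above 0 with RD only on the right-hand scale, which shifts each ratio by a constant.

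The summed FPKM of the 5 binding proteins was 4950 ± 142 with RD and 3841 ± 451 with HCD (SD, n = 3). Fabp1 made up 98.3% ± 0.5 of that sum with RD and 94.5% ± 1.31 with HCD. The share of Fabp2 was 1.06% ± 0.193 with RD and 5.30% ± 1.31 with HCD. The share of Fabp5 was 0.598% ± 0.37 and 0.0465% ± 0.0154. Per kilobase of the coding transcript, the share of Fabp5 was 2.12% ± 1.29 with RD and 0.167% ± 0.0552 with HCD, that of Fabp2 was 1.04% ± 0.188 and 5.28% ± 1.31, and that of Fabp1 was 96.7% ± 1.41 and 94.1% ± 1.32. On both scales Fabp1 made up most of the binding protein RNA in every liver.

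Fabp7, the form of the developing brain, was close to the limit of detection with RD. It had 10, 6 and 9 reads in the RD livers and 127, 48 and 36 reads in the HCD livers. On the CPM scale this was 0.481, 0.419 and 0.391 with RD and 6.42, 3.31 and 2.92 with HCD. All HCD livers lay above all RD livers, and HCD replicate 1 was the highest.

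Fabp7 had a mean of 0.43 ± 0.046 CPM with RD and 4.22 ± 1.92 CPM with HCD (SD, n = 3), a log2 fold change of 3.28 with a standard error of 0.48. With HCD replicate 1 left out, Fabp7 was at 2.84 and still passed. The call was lost when any 1 of the 3 RD livers was left out, while the log2 fold change stayed between 3.20 and 3.37. Fabp7 also belongs to the shortest length group, and with the length trend removed its log2 fold change was 3.12.

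Fabp4, the binding protein of adipocytes and macrophages, was low in all livers. It had 4.47, 2.58 and 4.04 CPM in the RD livers and 8.59, 3.03 and 6.00 CPM in the HCD livers. The groups overlapped, and the log2 fold change of 0.67 had a standard error of 0.41. It was 0.28 without HCD replicate 1, the highest liver. Of the 8 adipocyte markers, 4 had rows in the tables, and they summed to 2.04 to 5.34 CPM with RD and 0.414 to 6.32 CPM with HCD. Nearly all of this was Plin4, a lipid droplet protein, with 4.999, 3.42 and 1.95 CPM in the RD livers and 6.22, 0.414 and 2.68 CPM in the HCD livers. Plin4 and Fabp4 had the same order among the HCD livers and a different order among the RD livers, and Adipoq, the gene of adiponectin, Cfd and Cidea did not exceed 0.144 CPM. Their part in the Fabp4 values was not tested.

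Cd36, the fatty acid receptor, varied more within each diet than any other member. It had 12.8, 7.81 and 27.1 CPM in the RD livers and 160, 20.3 and 39.0 CPM in the HCD livers. HCD replicate 2 lay below RD replicate 3, so that the groups overlapped, and HCD replicate 1 was far above all others. The log2 fold change was 2.19 with a standard error of 0.74, and it was 0.88 without HCD replicate 1, which leaves 5 livers that all express Y-linked genes.

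The female-biased liver genes of a fixed list moved with Cd36 in HCD replicate 1. The 11 genes summed to 2035 CPM in that liver and to between 0.144 and 6.25 CPM in the other 5. The 14 male-biased genes summed to 169 CPM there and to between 6018 and 9089 CPM in the others. With 1 such liver, its sex cannot be told apart from other features of that animal, and the part of sex in its Cd36 value was not tested.

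Within the RD livers, Cd36 and Fabp5 had the same order: both were lowest in replicate 2 and highest in replicate 3, with ranges of 3.47-fold and 3.24-fold. In the HCD livers the order differed, since replicate 1 was the highest in Cd36 and the lowest in Fabp5. Fabp1 spanned only 1.09-fold among the RD livers. With 3 livers a diet these orders are descriptions.

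The transporters Slc27a2 and Slc27a4 stayed close to their RD levels. Slc27a2 had 1083, 828 and 846 CPM in the RD livers and 1144, 1165 and 980 CPM in the HCD livers. Slc27a4, a broadly expressed fatty acid transporter, had 45.2, 50.2 and 43.8 CPM in the RD livers and 35.9, 44.7 and 39.6 CPM in the HCD livers. The groups overlapped for both genes. The log2 fold changes were 0.25 (standard error 0.17) for Slc27a2 and -0.21 (standard error 0.14) for Slc27a4, and neither passed the threshold.

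**Figure D3:**
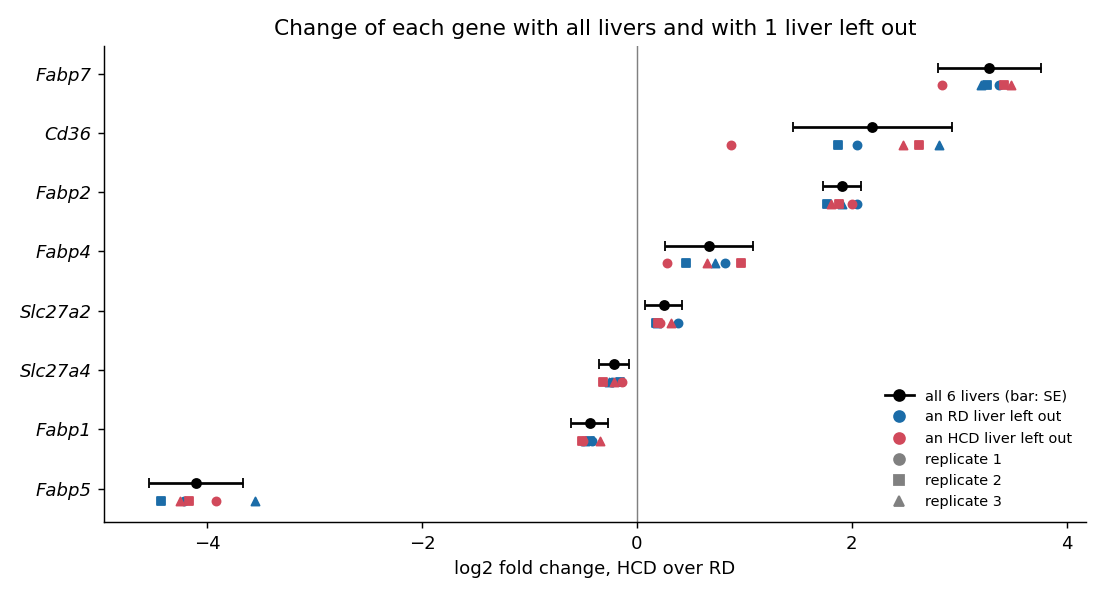
Log2 fold change of HCD over RD for each gene, in black with its standard error from all 6 livers, and below it the values with 1 RD liver (blue) or 1 HCD liver (red) left out, by replicate number. All values of a gene stay on the same side of 0, and Cd36 moves most, from 2.19 to 0.88, when HCD replicate 1 is left out.

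The genes whose levels ran closest to Fabp5 over the 6 livers were Rdh11, a retinol dehydrogenase, Plg, which encodes plasminogen, the chaperone Hspa4l, Gne, the first enzyme of sialic acid synthesis, and St6galnac6, a sialyltransferase. Their Pearson correlations with Fabp5 on log2 CPM were between 0.989 and 0.9945 among the 9116 genes that averaged 5 CPM or more, of which 85 were above 0.95. Their log2 fold changes were -1.50 for Rdh11, -0.38 for Plg, -1.05 for Hspa4l, -0.47 for Gne and -0.45 for St6galnac6, and all 5 were highest in RD replicate 3, both of which follow in part from choosing them by likeness to Fabp5. For Fabp7 the closest were the ribosomal protein genes Rpl8 and Rpl38, the receptor-like gene Fgfrl1, and Gm6472 and Gm2000, with correlations from 0.9885 to 0.9907. For Cd36 they were Calcrl, a receptor for calcitonin gene-related peptide and adrenomedullin, Dclk3, the caspase Casp6, Rcn2 and Dennd5b, from 0.9891 to 0.9961. These 5 had log2 fold changes from 0.25 to 0.70, and none passed. Each was highest in HCD replicate 1, as Cd36 was, so their likeness rests in part on that 1 liver. The 6 points share the 2 diets, so any gene that differs between them tends to correlate.

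Around the members, other genes of fatty acid handling were described by lists. Of 14 tested transport and acyl-CoA synthetase genes besides the members, 1 passed the test and fell, Acss2, which activates acetate (192 ± 59.2 CPM with RD, 69.0 ± 7.95 with HCD, log2 fold change -1.48, edgeR adjusted p = 0.0193). The median of this list was -0.18. Slc27a5, a liver transporter that also activates bile acids, was at -0.10, and Acsl1, the main long-chain acyl-CoA synthetase of liver, at -0.14, and neither passed. Scarb1, the HDL receptor, was at 0.63 and did not pass.

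Of 12 acyl-CoA binding and thioesterase genes, 4 passed, all of them upward, and the median was 0.23. They were the acyl-CoA thioesterases Acot2 (log2 fold change 2.72), Acot1 (2.30), Acot4 (1.91) and Acot13 (1.08), with edgeR adjusted p between 0.0184 and 0.041. With HCD replicate 1 left out, Acot2 was at 2.06 and no longer passed, and Acot4 was at 1.37 and passed. Acot1 and Acot2 are close paralogs, and how reads that match both were counted is not stated.

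Of 29 PPAR alpha target genes outside the 8 members, 6 passed, all of them upward, and the median was 0.35. Besides Acot1 and Acot2 these were the omega-hydroxylases Cyp4a14 (log2 fold change 5.26 with a standard error of 1.14) and Cyp4a10 (2.96, 0.57), and the peroxisomal enzymes Ehhadh and Acaa1b. The omega-hydroxylases rested in size on HCD replicate 1, without which Cyp4a14 was at 3.24 and Cyp4a10 at 1.91. In that fit 5 of the 6 passed and Acot2 did not. Fabp1, itself a known PPAR alpha target, had a log2 fold change of -0.44 beside this list, which had 23 genes above 0 and 6 below.

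Of 19 regulators, 1 passed upward and 2 downward. Srebf1, the regulator of lipogenic genes, rose from 227 ± 45.4 to 1001 ± 168 CPM (SD, n = 3, log2 fold change 2.14). Srebf2, the regulator of cholesterol synthesis, fell (-1.02), as did Rxra, the partner of many nuclear receptors (-0.68). Ppara itself was at 0.14 and did not pass, nor did Pparg (0.89, or 0.45 without HCD replicate 1), Ppard (1.06) or Hnf4a (-0.36). Without HCD replicate 1, 3 regulators passed upward and 2 downward. Ppard and Cebpb now passed upward and Ahr downward, while Rxra, at -0.63, no longer passed.

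Lists of targets of sterol and xenobiotic regulators differed in how many of their genes passed. All 24 SREBP2 target genes had a log2 fold change below 0, and 23 passed, with a median of -1.74. With HCD replicate 1 left out the median was -1.76 and 20 passed, since Acat2 (-0.79), Insig1 (-1.04) and Sc5d (-1.12) were then short of the threshold. The largest falls were Fdps (log2 fold change -4.65), Sqle (-4.33), Mvd (-4.22) and Idi1 (-3.69), enzymes of the route to cholesterol, and the Fabp5 value of -4.10 lay between those of Mvd and Idi1. Of 10 LXR target genes, 9 had a log2 fold change above 0 and 4 passed, all of them upward. The 4 were Abcg5 (2.74) and Abcg8 (2.64), which export sterols into bile, Srebf1 (2.14) and the cholesterol transporter Abcg1 (2.10). All 11 PXR and CAR target genes had a log2 fold change above 0, and 3 passed: Abcb1a (3.25), Cyp3a11 (1.06) and Cyp3a25 (0.98). Abcb1a was at 2.08 without HCD replicate 1. Of 14 fatty acid synthesis genes, 2 had a log2 fold change above 0 and 12 below. Srebf1 passed upward, and Acacb (-1.81) and Fads1 (-1.12) passed downward.

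**Figure D4:**
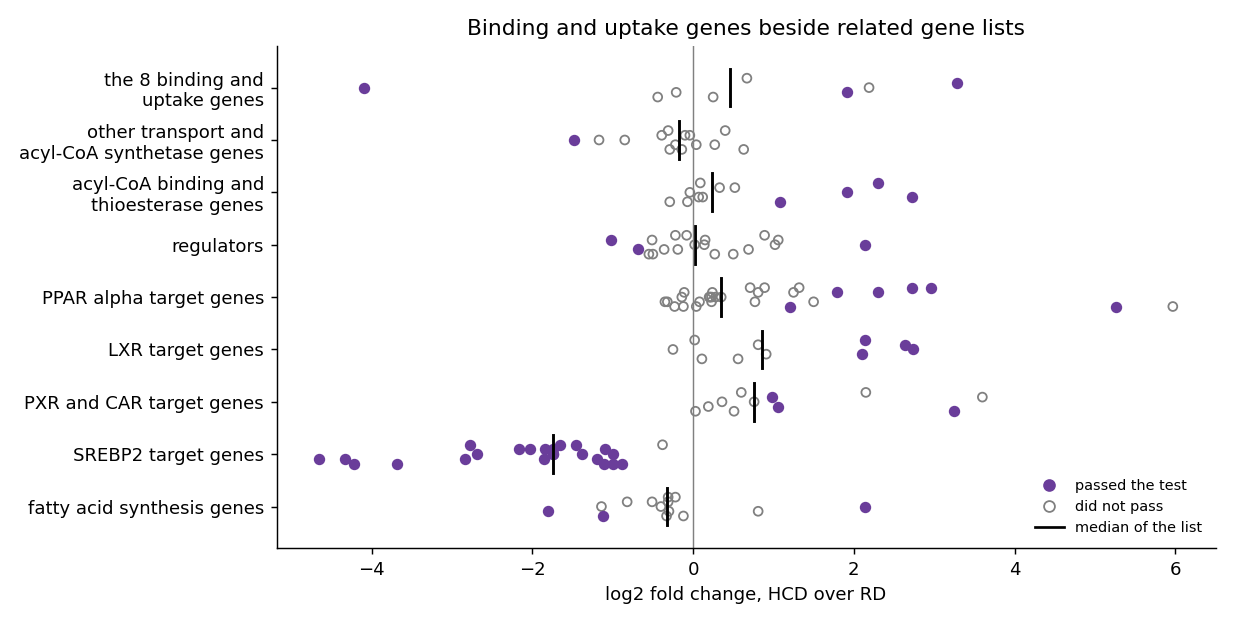
Log2 fold change of HCD over RD for the 8 binding and uptake genes (top) and for related gene lists, with filled points for genes that passed an adjusted p of 0.05, open points for the others and a black line at each median. The SREBP2 target genes lie below 0, with a median of -1.74, while the 8 genes are spread from -4.10 to 3.28.

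Fabp3, the heart form of the binding proteins, had at most 3 reads in any liver.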

How the data were processed

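Liver RNA from 3 RD and 3 HCD mice was sequenced, 1 library per mouse. Groups came from the sample labels. The library names begin with A for every RD liver and with Liver for every HCD liver. The labels do not say whether these names stand for separate preparation or sequencing, and such a difference could not be told apart from diet. The authors deposited read counts per gene, as whole numbers without normalization, and FPKM values, whose library total is not stated. The log2 fold changes and the p-values and adjusted p-values that the authors deposited belong to their own comparison and were not used. The submitters' processing notes list STAR, HTSeq, DESeq2, edgeR and GRCm39, without role or version. The library kit, strand and annotation are not given in the sources used here. Gene lengths implied by FPKM equalled the summed exons of GENCODE M21 on GRCm38, within 0.1%, for 95.48% to 95.92% of genes, so coordinates are those of M21.

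The main test ran on the counts in edgeR 4.0.16 (R 4.3.3). Low genes were removed with filterByExpr (13105 of 20673 kept), totals were scaled by TMM, and diet was tested by glmQLFit and glmQLFTest without covariates, p being adjusted by Benjamini and Hochberg's method over all tested genes, with a threshold of 0.05. The common biological coefficient of variation was 27.8%. CPM were computed from the counts and TMM factors. P-values set the difference between the diets against the spread between these mice, which was estimated in part across genes. Alternatives used DESeq2 1.42.0, limma 3.58.1 (log2 of FPKM plus 1 or 0.1), other scalings and filters, a loess correction of a trend with gene length, a replicate block and each liver left out.

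The members and the gene lists were chosen with earlier results of these data known. All 8 members are given. From the lists, at most the 4 largest rises and 4 largest falls past the threshold have values; other list genes with values (among them Slc27a5, Acsl1, Scarb1, Ppara, Pparg, Ppard, Hnf4a, Fabp3, and the sex and cell type markers named) were chosen after their values were seen. For Fabp5, Fabp7 and Cd36 the 5 genes of highest correlation are named, with the neighbours of Fabp4 and Fabp5 and the pseudogenes of Fabp5. Coding sequences were aligned with Biopython 1.88 (match 1, mismatch -1, gap -4 and -1), and copies were found with BLAST 2.17.0 in the M21 transcripts. Promoters are from RefSeq (GRCm38.p6), where 6 of the 8 members matched. The result for 1 list gene is not reported here.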

Additional observations from a re-analysis of the deposited data

How the results depend on the processing

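All 8 members kept the direction of their log2 fold change in every alternative that tested them. Fabp2 and Fabp5 passed the threshold in each. Fabp7 had too few reads for the filter of a mean of 50 counts, and lost its call when RD replicate 1, 2 or 3 was left out. The count of members past the threshold was 3, between 2 and 3 with 1 liver left out, and 5 when p was not adjusted (0.05 or less), which adds Fabp1 and Cd36.

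Of 128 tested genes of the pathway lists, 43 passed. This count was 65 by unadjusted p (0.05 or less) and between 15 and 41 with 1 liver left out: 15, 20 and 26 for the RD livers and 41, 33 and 24 for the HCD livers, in replicate order. The cause was not tested beyond the loss of samples. With the replicate numbers as a block it was 28, of which 27 were among the 43, and 3 members passed. The numbers do not pair the livers: correlations of same-numbered deviations were -0.084, 0.119 and -0.03, and not every liver correlated best with its own number.

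Over all genes, 428 passed, against 992 in DESeq2, 649 without the filter on low counts, 253 after the length correction, 136 with the block, and 36, 51 and 146 with an RD liver and 335, 333 and 103 with an HCD liver left out, in the same order. With library sizes alone, 158 of 319 calls were higher with HCD, against 255 of 428. Fabp1 made up 94.5% of the summed FPKM of the binding proteins with HCD, and 94.1% per kilobase of the coding transcript, while the share of Fabp5 with RD went from 0.598% to 2.12%.

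The size of a difference in Fabp7 is limited by its 6 to 10 reads per RD liver, and the log2 fold change of 1.94 on log2 of FPKM plus 1 is understated by the pseudocount. With 3 livers a diet, and 1 HCD liver of the other sex by its Xist reads, the differences in Fabp4 and Cd36 did not pass, and they were 0.28 and 0.88 on the log2 scale without that liver.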
